A study of Mus musculus with 10 samples.

Results

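Lipid droplet genes were followed in the livers of Etnppl knockout mice. The set held 10 genes, which code for the CIDE proteins (Cidea, Cideb, Cidec), the perilipins (Plin2, Plin3, Plin4, Plin5), the patatin-like lipases (Pnpla2, Pnpla3) and the lipase inhibitor G0s2. They were found by gene symbol among the 47702 genes of the deposited table, and each symbol matched 1 gene. The first group was female mice with a full-body knockout of Etnppl (KO), and the other was wild-type (WT) females. Both groups ate chow for 20 weeks, and each gave 5 liver libraries of poly-A RNA. Etnppl encodes ethanolamine-phosphate phospho-lyase, which breaks down phosphoethanolamine, a precursor of the membrane lipid phosphatidylethanolamine. The study asked how its loss alters gene expression in the liver. Neither the labels nor the design text gives the age of the animals, their strain or the exons targeted.

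A lipid droplet is a core of triglyceride and sterol ester under a single layer of phospholipid, to which coat proteins bind. Perilipins cover that layer and limit the access of lipases, and CIDE proteins sit where droplets touch and let lipid pass into the larger droplet. Adipose triglyceride lipase, the product of Pnpla2, takes the first fatty acid off triglyceride, and G0s2 binds and inhibits it. Hepatocytes keep droplets as a short-term store that grows in fasting and in fatty liver, and several of these genes are known targets of the fatty acid receptor PPARα.

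Values were FPKM, which is scaled for transcript length and library total, so levels can be compared between genes and any gene's value is relative to the rest of its library. limma compared KO with WT on log2(FPKM + 0.5) for the 12247 genes that averaged 0.5 FPKM or more across the 10 libraries, and a gene counted as called where its p, adjusted by Benjamini-Hochberg over all of them, was under 0.05. Of these, 1046 were called (8.54%), 488 higher in KO (3.98%) and 558 lower (4.56%). The targeted gene Etnppl had 26.43, 21.97, 18.88, 25.74 and 17.72 FPKM in KO 1 to 5, against 60.27, 69.73, 108.39, 47.24 and 43.32 FPKM in WT 1 to 5. Every KO library lay below every WT library, but the transcript was still present in KO (log2 difference -1.49, SE 0.23, limma adjusted p = 0.00504; exact permutation test, two-sided, p = 0.00794, the smallest that 252 arrangements allow). The relative depth of the libraries, estimated from the smallest values in the table, averaged 0.957 in KO and 1.05 in WT (exact permutation test, two-sided, p = 0.0556, n = 5 each). Whether each library came from its own animal is not stated, and the p-values cover the spread among these libraries, which may be technical.

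The liver identity of the libraries was checked against markers. The 6 hepatocyte markers summed to between 58833 and 64713 FPKM in KO and between 53796 and 59149 FPKM in WT. Of them 1 was called, Cps1 of the urea cycle, which was higher in KO (log2 difference 0.58), beside 3.98% called higher over all genes. Adipocyte markers were low but not absent, and fat also expresses several of the droplet genes. Leptin transcript (Lep) was listed at 0 in all 10 libraries, and adiponectin transcript (Adipoq) was between 0.05 and 0.36 FPKM in KO and between 0 and 0.3 FPKM in WT. The 7 adipocyte markers summed to between 6.65 and 15.2 FPKM in KO and between 5.23 and 9.59 FPKM in WT, and Fabp4 and Cfd made up most of each sum. Only these 2 passed the filter, neither was called, and their median log2 difference was 0.39. Fabp4 averaged 8.80 ± 2.45 FPKM in KO and 5.81 ± 1.06 FPKM in WT (SD, n = 5 each; log2 difference 0.54, limma adjusted p = 0.0752). Cfd, which encodes adipsin, was at 0.07 to 2.33 FPKM in KO and 0 to 1.58 FPKM in WT (log2 difference 0.24, limma adjusted p = 0.825). Skeletal muscle markers summed to at most 0.57 FPKM in KO and 2.08 FPKM in WT, with Myh1 and Myh4 listed at 0 in all 10 libraries. Of 7 Kupffer cell markers 4 were called, all lower in KO (Clec4f, Vsig4, C1qa and Csf1r), beside 4.56% called lower over all genes. The other 3 did not pass (Adgre1, Cd5l and Timd4). The 7 summed to 116 to 164 FPKM in KO and 175 to 201 FPKM in WT. Csf1r lost its call when any of 6 libraries was left out, KO 1, KO 2, KO 5, WT 1, WT 2 or WT 3 (limma adjusted p up to 0.0687), and with no filter (0.0566). Of 10 stellate cell markers 1 was called, Reln, which was lower in KO (limma adjusted p = 0.0466). That call ended when any library but WT 3 was left out (adjusted p up to 0.105), with no filter (0.0804) and with values scaled by quantiles (0.0572) or by median of ratios (0.0565). Their sums were 257 to 292 FPKM in KO and 262 to 361 FPKM in WT. The part of these markers in the droplet gene differences was not tested. In whole liver, fewer cells of a type and less RNA per cell cannot be told apart.

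Of the 10 droplet genes, 8 passed the filter on low values. Cidec and Pnpla2 rose in KO, none fell, and 6 did not pass the test (Cideb, Plin2, Plin3, Plin4, Plin5 and G0s2). Cidea and Pnpla3 were under the filter and were not tested. The share of all genes called higher was 3.98%. Only Cidec of the 8 had all KO libraries above all WT libraries, an arrangement that 4.08% of all tested genes showed, and none had all KO libraries below all WT libraries, as 4.78% of tested genes did. The median log2 difference of the 8 was 0.09, against -0.02 over all tested genes.

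**Figure D1:**
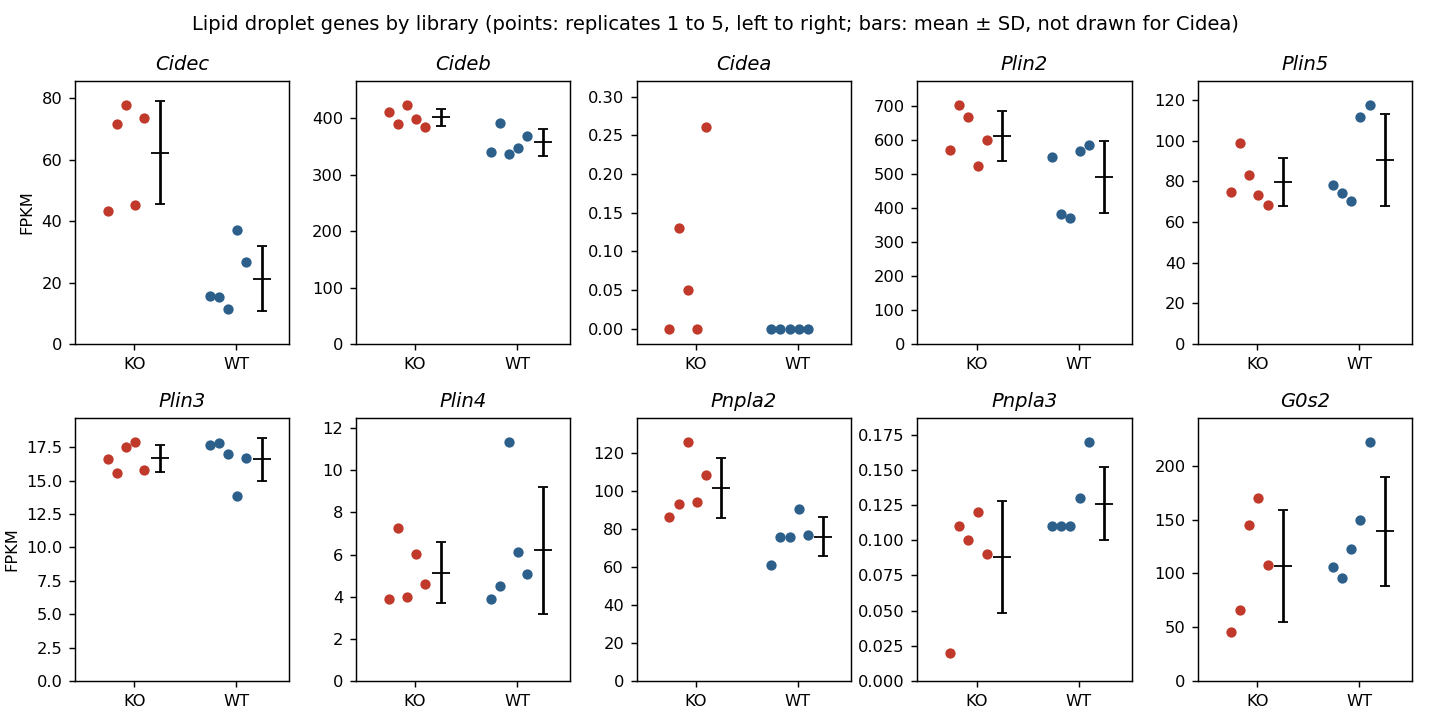
FPKM of each of the 10 droplet genes in the 5 KO libraries (left, red) and the 5 WT libraries (right, blue), with mean ± SD for all but Cidea. Cidec is the gene whose 2 groups do not overlap, with KO values of 43.25 FPKM and more and WT values of 37.25 FPKM and less.

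Cidec, also known as fat-specific protein 27, drives the fusion of small droplets into large ones in fat and in fatty liver. Its gene lies on the minus strand of chromosome 6, from 113424634 to 113435760 (mm10). Cidec had 43.25, 71.74, 77.82, 45.31 and 73.66 FPKM in KO 1 to 5, against 15.75, 15.21, 11.5, 37.25 and 26.81 FPKM in WT 1 to 5. All KO libraries were above all WT libraries. The gap between the groups was small next to their spread: KO 1 and KO 4 stood just above WT 4, and KO 2, KO 3 and KO 5 stood far above every WT library. The mean was 62.4 ± 16.7 FPKM in KO and 21.3 ± 10.6 FPKM in WT (SD, n = 5 each), a ratio of 2.93. The log2 difference was 1.61 (SE 0.31, 95% interval 0.92 to 2.30, limma adjusted p = 0.0138). It was the fifth largest rise of all 12247 genes tested, and it ranked 332 by p. The rise stayed called whichever library was left out, with log2 differences from 1.43 to 1.84 and adjusted p of at most 0.0361. Inside each genotype, the adipocyte markers Adipoq and Cfd mostly moved with Cidec, and Fabp4 did so in KO. Adipoq was at 0.05, 0.19, 0.24, 0.09 and 0.36 FPKM in KO 1 to 5, against 0.15, 0, 0, 0.21 and 0.3 FPKM in WT 1 to 5. Cfd was at 0.07, 0.82, 0.95, 0.07 and 2.33 FPKM in KO 1 to 5, against 0.66, 0.06, 0, 1.58 and 0.65 FPKM in WT 1 to 5. Fabp4 was at 6.44, 7.75, 11.12, 6.96 and 11.74 FPKM in KO 1 to 5, against 5.49, 5.1, 5.73, 7.64 and 5.09 FPKM in WT 1 to 5. The 3 KO libraries with the most Cidec had the most of all 3 markers among KO, and the WT libraries with the most Cidec, WT 4 and WT 5, had the most Adipoq among WT, while WT 2 and WT 3, with the least Cidec, were listed at 0 for it. Among WT, Fabp4 was highest in WT 4 but lowest in WT 5. Plin1, under the filter and named after its values were seen, followed Cidec only in part. It was at 0.09, 0.11, 0.03, 0 and 0.39 FPKM in KO 1 to 5, against 0.11, 0, 0, 0.09 and 0.08 FPKM in WT 1 to 5. KO 3, with the most Cidec, had less Plin1 than KO 1, and WT 1 had the most among WT. KO 5 had the most Plin1 among KO, and WT 2 and WT 3, with the least Cidec, were listed at 0. Between the genotypes, KO 1 and KO 4 had less Adipoq and less Cfd than WT 4 and WT 5 and more Cidec. KO 1 and KO 4 had less Fabp4 than WT 4 and more than WT 5. The part of fat tissue in the Cidec values was not tested.

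RefSeq lists 2 transcription starts for Cidec, 996 bases apart, and gene-level FPKM does not show which of them was used. The 250 bases before each start are shown because Cidec carried the largest difference of the set, with those before the single listed Pnpla2 start, the other gene that rose. All are GRCm38.p6, the assembly of mm10, written 5′ to 3′ on the strand of the gene.
Cidec, upstream start, chr6:113435761-113436010, minus strand: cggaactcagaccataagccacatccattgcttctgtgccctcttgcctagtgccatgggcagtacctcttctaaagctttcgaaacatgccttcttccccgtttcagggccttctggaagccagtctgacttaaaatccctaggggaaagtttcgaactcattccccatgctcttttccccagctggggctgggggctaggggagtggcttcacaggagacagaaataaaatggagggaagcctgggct
Cidec, downstream start, chr6:113434765-113435014, minus strand: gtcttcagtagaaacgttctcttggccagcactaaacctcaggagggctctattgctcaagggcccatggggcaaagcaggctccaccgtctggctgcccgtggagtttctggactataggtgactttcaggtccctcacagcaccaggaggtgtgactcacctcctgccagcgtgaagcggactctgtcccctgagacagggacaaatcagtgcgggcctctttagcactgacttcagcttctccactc
Pnpla2, chr7:141454938-141455187, plus strand: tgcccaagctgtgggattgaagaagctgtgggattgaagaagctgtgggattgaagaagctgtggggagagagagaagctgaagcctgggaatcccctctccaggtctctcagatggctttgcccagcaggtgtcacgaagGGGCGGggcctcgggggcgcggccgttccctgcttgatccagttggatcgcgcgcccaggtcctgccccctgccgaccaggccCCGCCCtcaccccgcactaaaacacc
Capitals mark matches, on either strand, to any of 9 motifs: the TATA box letters TATAAA, the nuclear receptor hexamer AGGTCA, a repeat of that hexamer in the same direction with any 1 base between (as PPARα binds with RXR), the E-box CACGTG, the cyclic AMP response letters TGACGT, the forkhead letters GTAAACA, the C/EBP letters TTGCGCAA, the CCAAT box and the GC box GGGCGG. The repeat contains the hexamer, and no other motif here contains another. Neither Cidec window held any of these letters. The Pnpla2 window held the GC box 2 times, starting 109 and 26 bases before the start, and 32.7% of all 32851 promoters of the table hold it in the same window. The windows were 52.8% and 56.8% G or C before the upstream and downstream Cidec starts and 63.2% before the Pnpla2 start, against 53.2% over all promoters. Over the 11 windows of the 9 droplet genes looked at, AGGTCA was found before Plin2 and 1 of the 2 Plin5 starts (14.0% of all promoters), TATAAA before Cideb (12.4%), TGACGT before Pnpla3 (6.47%), CCAAT in 5 windows (33.8%) and the GC box in 7. The repeat, the E-box, the forkhead and the C/EBP letters were in none of them, and in 0.0335%, 6.02%, 3.17% and 0.164% of all promoters.

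Cideb, the CIDE protein of hepatocytes with a known part in loading lipid onto very low density lipoprotein, was the more abundant family member in every library. The gene spans 55754050 to 55758458 of chromosome 14, minus strand (mm10). It had 410.04, 389.33, 423.03, 397.36 and 384.93 FPKM in KO 1 to 5, against 339.69, 391.51, 335.55, 347.67 and 368.99 FPKM in WT 1 to 5. KO 1, KO 3 and KO 4 were above all WT libraries, and WT 2 reached into the KO range. The mean was 401 ± 15.6 FPKM in KO and 357 ± 23.4 FPKM in WT (SD, n = 5 each), or 0.17 higher on the log2 scale (SE 0.05, 95% interval 0.05 to 0.29), which did not pass the test (limma adjusted p = 0.0735). It did pass after median-of-ratios scaling (limma adjusted p = 0.0499), after quantile normalization (0.0316) and without WT 2 (0.0372). Cideb shares 1136 exon bases with Nop9 on the opposite strand, which was at 5.77 to 6.1 FPKM in KO and 4.86 to 6.44 FPKM in WT, and no source says whether counting used strand. Cidec made up 9.54% to 16.1% of the summed FPKM of Cidec and Cideb in KO and 3.31% to 9.68% in WT. The WT library with the highest share was WT 4.

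Cidea, the CIDE protein of brown fat that also appears in fatty liver, was close to the limit of detection. It spans 67343604 to 67367785 of chromosome 18, plus strand (mm10). It was listed at 0 FPKM in KO 1 and KO 4 and at 0.13, 0.05 and 0.26 FPKM in KO 2, KO 3 and KO 5, and at 0 in all 5 WT libraries. The 3 KO libraries with a Cidea value were the 3 with the most Cidec. They were also the 3 KO libraries with the most adiponectin transcript, 0.19, 0.24 and 0.36 FPKM in KO 2, KO 3 and KO 5. WT 4 and WT 5 had more adiponectin transcript than KO 2, at 0.21 and 0.3 FPKM, and no Cidea value. Ucp1, a gene of brown fat, was listed above 0 in KO 3 (0.06 FPKM) and KO 5 (0.37 FPKM) and in no other library. The part of fat tissue in the Cidea values was not tested. With no filter on low values, limma gave Cidea an adjusted p of 0.327.

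**Figure D2:**
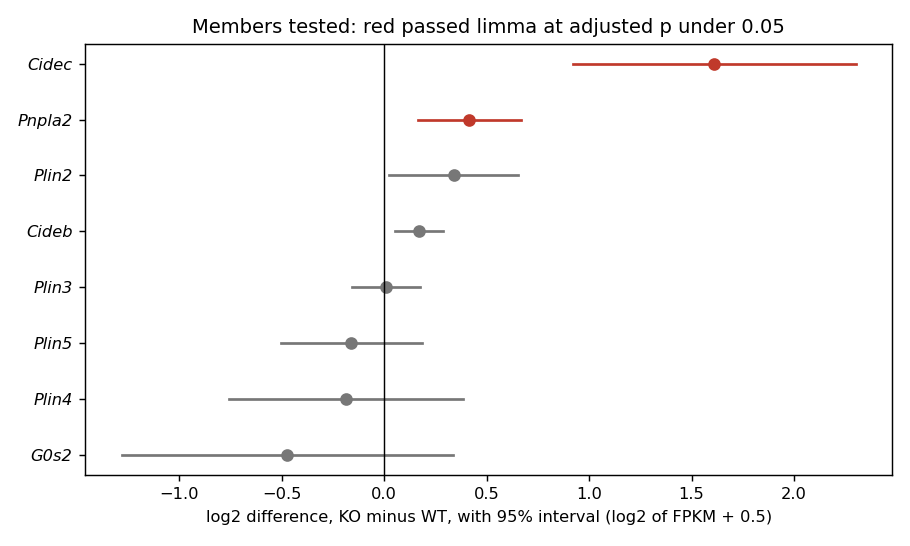
Log2 difference, KO minus WT, of the 8 droplet genes tested, with its 95% interval from limma. Cidec (1.61) and Pnpla2 (0.42) are the 2 that passed the test, and the interval of G0s2 is the widest, from -1.28 to 0.33.

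Among the perilipins, none of the 4 passed the test. Plin2, the main coat protein of droplets in hepatocytes and a protein that is degraded when no droplet holds it, was the most abundant gene of the set. Its gene lies on the minus strand of chromosome 4, from 86648386 to 86670060 (mm10). Plin2 had 570.8, 704.19, 667.53, 523.94 and 600.65 FPKM in KO 1 to 5, against 550.42, 382.71, 371.49, 569.41 and 585.62 FPKM in WT 1 to 5. The WT libraries fell into a low pair, WT 2 and WT 3, and a set of 3 within the KO range. The mean was 613 ± 72.7 FPKM in KO and 492 ± 106 FPKM in WT (SD, n = 5 each), and the log2 difference was 0.34 (SE 0.14, 95% interval 0.02 to 0.65, limma adjusted p = 0.173). After quantile normalization alone the adjusted p was 0.0468.

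Plin5, the perilipin of tissues that burn fat, binds droplets to mitochondria and holds Pnpla2 and its coactivator apart. It lies on the minus strand of chromosome 17, from 56111601 to 56117596 (mm10), next to Plin4. Plin5 had 74.74, 98.88, 82.96, 73.38 and 68.39 FPKM in KO 1 to 5, against 78.19, 74.42, 70.29, 111.83 and 117.5 FPKM in WT 1 to 5. The groups overlapped through most of their range, with WT 4 and WT 5 highest of all. The log2 difference was -0.16 (SE 0.16, 95% interval -0.51 to 0.19, limma adjusted p = 0.582).

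Relative to Plin2, Plin5 was lower in all KO libraries, by a narrow margin. The ratio of Plin5 to Plin2 FPKM was between 0.114 and 0.140 in KO and between 0.142 and 0.201 in WT. WT 1 was the lowest of the WT libraries and stood next to KO 2. Plin2 made up 84.3% to 87.1% of the FPKM of the 4 perilipins in KO and 79.0% to 84.7% in WT. These ratios were not tested.

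Plin3, a perilipin found in nearly all cells that moves from cytosol to new droplets, was at much the same level in both groups. It lies on chromosome 17, from 56277476 to 56292873 (mm10), and was between 15.56 and 17.92 FPKM in KO and between 13.85 and 17.85 FPKM in WT. The log2 difference was 0.01 (95% interval -0.16 to 0.17, limma adjusted p = 0.957). Plin4, a perilipin of fat and muscle, lies on chromosome 17, from 56100591 to 56109803 (mm10). It had 3.89, 7.24, 3.98, 6.03 and 4.58 FPKM in KO 1 to 5, against 3.9, 4.51, 11.36, 6.14 and 5.07 FPKM in WT 1 to 5. WT 3 stood above all other libraries, and it was also the library with the most Etnppl. The log2 difference of Plin4 was -0.19 (95% interval -0.76 to 0.38, limma adjusted p = 0.711), and without WT 3 it was 0.04 (adjusted p = 0.916).

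Pnpla2 was by far the more abundant of the pair of lipases, and it rose in KO. It spans 141455198 to 141460743 of chromosome 7, plus strand (mm10). Pnpla2 had 86.1, 93.23, 125.79, 94.27 and 108.04 FPKM in KO 1 to 5, against 61.11, 75.48, 75.55, 90.25 and 76.79 FPKM in WT 1 to 5. Of the 5 KO libraries 4 lay above all WT libraries, and KO 1 lay below WT 4. The mean was 101 ± 15.7 FPKM in KO and 75.8 ± 10.3 FPKM in WT (SD, n = 5 each), a ratio of 1.34. The log2 difference was 0.42 (SE 0.11, 95% interval 0.17 to 0.67, limma adjusted p = 0.0453). The call was close to the threshold: leaving out any library but KO 1 or WT 4, that is any of 8, ended it (limma adjusted p up to 0.101), and so did testing with no filter on low values (0.0899).

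Pnpla3, a lipase whose human form is tied to fatty liver and whose transcript follows feeding, was barely detected. It spans 84167837 to 84187236 of chromosome 15, plus strand (mm10), and shares 105 exon bases with the noncoding Gm49513 on the same strand. It had 0.02, 0.11, 0.1, 0.12 and 0.09 FPKM in KO 1 to 5, against 0.11, 0.11, 0.11, 0.13 and 0.17 FPKM in WT 1 to 5. At this level a difference was not detectable, and with no filter on low values limma gave an adjusted p of 0.492.

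G0s2, the inhibitor of Pnpla2, varied more between libraries of 1 genotype than between genotypes. Its gene lies on the minus strand of chromosome 1, from 193272161 to 193273217 (mm10). G0s2 had 45.75, 65.89, 144.7, 170.04 and 107.83 FPKM in KO 1 to 5, against 106, 95.68, 123.11, 149.59 and 222.61 FPKM in WT 1 to 5. KO 1 and KO 2 were below all WT libraries and WT 5 above all KO libraries, with the other 7 mixed. The log2 difference was -0.47 (SE 0.36, 95% interval -1.28 to 0.33, limma adjusted p = 0.469). The ratio of G0s2 to Pnpla2 FPKM averaged 1.04 ± 0.49 in KO and 1.84 ± 0.62 in WT (SD, n = 5 each), with ranges of 0.531 to 1.80 in KO and 1.27 to 2.90 in WT that overlapped.

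By mean FPKM over the 10 libraries the order was Plin2, Cideb, G0s2, Pnpla2, Plin5, Cidec, Plin3, Plin4, Pnpla3 and Cidea, from 553 to 0.044 FPKM. Plin2 was above Cideb in 9 libraries, all but WT 2. Cideb was above G0s2 and Plin3 above Plin4 in all 10. The neighbours G0s2 and Pnpla2 changed places between libraries (G0s2 higher in 7 of 10), as did Pnpla2 and Plin5 (Pnpla2 higher in 6 of 10). Cidec was above Plin3 in all 5 KO libraries and in WT 4 and WT 5, and below it in WT 1, WT 2 and WT 3. Plin5 was above Cidec in 9 libraries, and in KO 5 Cidec was the higher of the pair, at 73.66 FPKM beside 68.39 FPKM of Plin5.

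Within a genotype, Cidec, Plin2 and Plin5 mostly deviated together. Values were taken as log2(FPKM + 0.5) minus the genotype mean, so that the genotype difference itself was removed. Over the 10 libraries Pearson's r was 0.81 for Plin2 with Plin5, 0.79 for Cidec with Plin5 and 0.79 for Cidec with Plin2, as a description of libraries that also share depth and preparation. WT 4 and WT 5 were above the WT mean and WT 2 and WT 3 below it for all 3 genes. KO 2 and KO 3 were above the KO mean and KO 1 and KO 4 below it for all 3. KO 5 had the least Plin5 of all 10 libraries (68.39 FPKM), but its Cidec (73.66 FPKM) was above the KO mean. Pnpla2 followed Cidec less closely (r = 0.65), Cideb did not follow it (r = 0.05), and Plin3 ran against it (r = -0.71).

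Etnppl deviated opposite to Cidec, a relation noticed after the values had been seen. In KO, the 2 libraries with the most Etnppl, KO 1 and KO 4, had the least Cidec, and KO 3 and KO 5, with the least Etnppl, had the most. In WT, WT 3 had the most Etnppl and the least Cidec, and WT 4 and WT 5 the reverse. On the centred values Pearson's r was -0.88 and Spearman's rho -0.96 over 10 libraries. It was -0.92 within KO and -0.88 within WT (5 libraries each), and -0.90 without WT 3 and WT 5, the 2 libraries farthest in Etnppl. Of the 7043 other genes averaging 5 FPKM or more, Etnppl had the 28th most negative r with Cidec. Plin2 had r = -0.82 with Etnppl, -0.55 within KO and -0.89 within WT, and Plin5 had r = -0.68, 0.02 within KO and -0.88 within WT. These are descriptions with no test. Adipoq and Cfd, given above for every library, moved with Cidec in the same libraries, and their part in these relations was not tested.

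**Figure D3:**
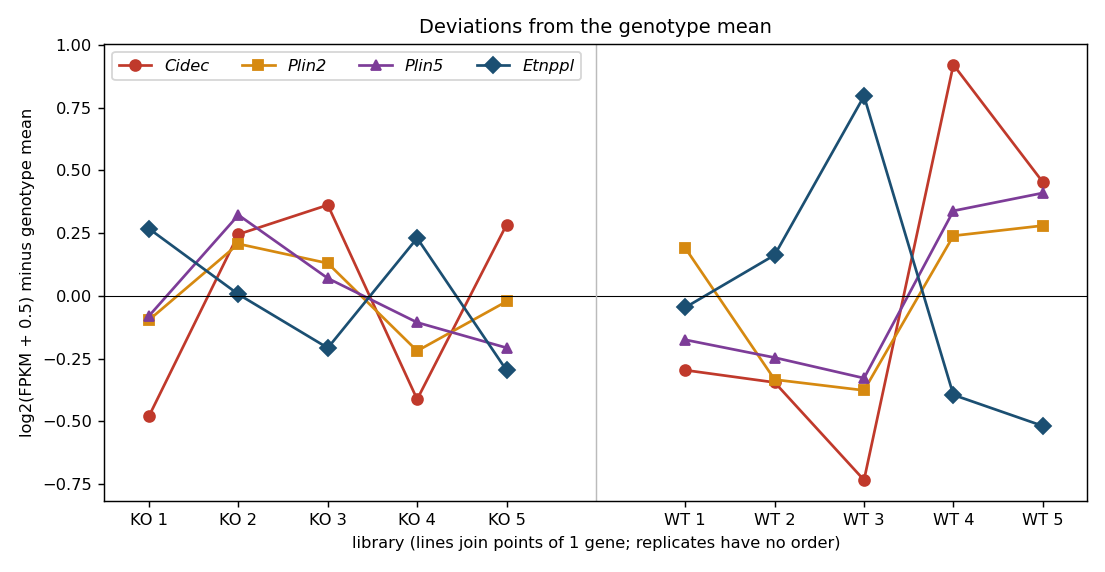
Log2(FPKM + 0.5) minus the genotype mean for Cidec, Plin2, Plin5 and Etnppl, in KO 1 to 5 (left) and WT 1 to 5 (right). Etnppl lies on the other side of the mean from Cidec in KO 1, KO 3, KO 4, KO 5 and in WT 2, WT 3, WT 4 and WT 5.

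**Figure D4:**
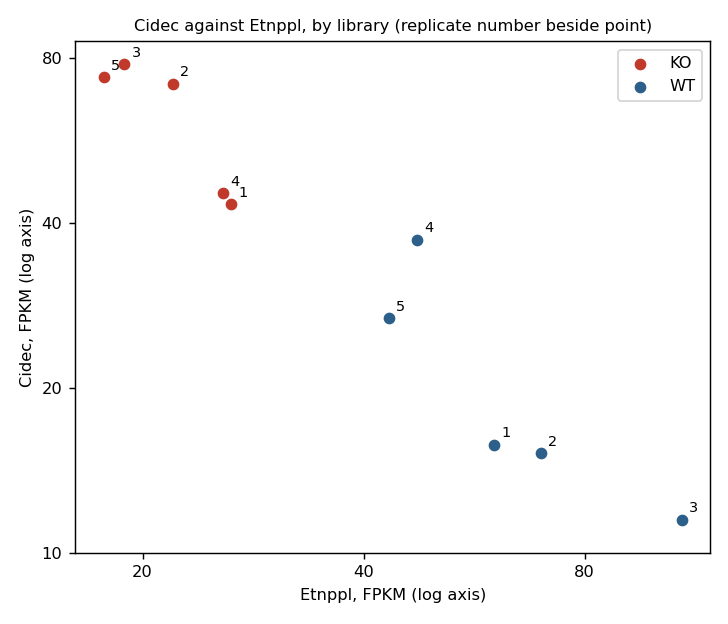
Cidec against Etnppl in FPKM, both on log axes, with 1 point for each library and its replicate number (KO red, WT blue). KO libraries lie at 17.72 to 26.43 FPKM of Etnppl and 43.25 to 77.82 FPKM of Cidec, and within each colour the libraries with more Etnppl lie lower, apart from the order of KO 3 and KO 5 and of WT 4 and WT 5.

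By the same centred measure over 10 libraries, the genes most like Cidec among the 7043 were Serinc2 (r = 0.94), Ech1 (0.94) and Vwa8 (0.94). Serinc2 was at 4.4 to 6.79 FPKM in KO and 9.28 to 20.97 FPKM in WT, so its levels lay the other way round between the genotypes from those of Cidec. The genes most like Pnpla2 were Ikbkg (0.91), Rap1gds1 (0.91) and Cd163 (0.91). Those most like Cideb were Masp2 (0.93), Igfbp7 (0.91) and Zfp444 (0.91). Each set of 3 holds the highest of 7043 values of r over 10 libraries. How high r would reach among unrelated genes was not tested.

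Other genes of droplet coats, droplet formation and lipolysis were mostly not called, and the calls went in both directions. Of 35 such genes 32 were tested, of which 2 rose, 2 fell and 28 did not pass, beside 8.54% called over all genes, with a median log2 difference of -0.00. Hsd17b13, a hepatocyte droplet protein tied to fatty liver in humans, rose to 474 ± 23.4 FPKM in KO, against 358 ± 35.6 FPKM in WT (SD, n = 5 each; log2 difference 0.41, limma adjusted p = 0.00573). All its KO libraries, from 440.92 FPKM, were above all its WT libraries, up to 402.75 FPKM. Abhd6, a monoacylglycerol lipase, rose by 0.40 on the log2 scale, but the call ended when any of 8 libraries was left out, the exceptions being WT 4 and WT 5 (limma adjusted p up to 0.0819), and with no filter (0.0725). Dhrs3, a retinal reductase found on droplets, fell to 70.0 ± 4.41 FPKM in KO, against 87.9 ± 7.03 FPKM in WT (log2 difference -0.33, limma adjusted p = 0.0138). Pnpla6, a lysophospholipase, fell to 7.61 ± 1.35 FPKM in KO, against 10.5 ± 0.58 FPKM in WT (log2 difference -0.46, limma adjusted p = 0.0216), and lost the call without KO 5 (0.0556). Abhd5, the coactivator of Pnpla2, hormone-sensitive lipase (Lipe), Mgll and Hilpda, another inhibitor of Pnpla2, had log2 differences of -0.07, -0.00, -0.03 and 0.03, none of which passed (limma adjusted p of 0.624, 0.997, 0.886 and 0.931). These 4 were named after their values were seen.

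PPARα targets other than the droplet genes did not move 1 way. Of 31 tested, 3 rose, 3 fell and 25 did not pass, with a median of -0.02. Over all genes 3.98% were called higher and 4.56% lower. Cd36, a fatty acid transporter, rose to 126 ± 12.2 FPKM in KO, against 84.1 ± 11.6 FPKM in WT (SD, n = 5 each; log2 difference 0.58, limma adjusted p = 0.00612). Ehhadh, of peroxisomal β-oxidation, rose by 0.65 on the log2 scale. Retsat, a retinol saturase, fell to 425 ± 26.8 FPKM in KO, against 650 ± 116 FPKM in WT (log2 difference -0.60, limma adjusted p = 0.00682). Acadm, of mitochondrial β-oxidation, fell by 0.24, and Ucp2, a mitochondrial carrier, by 0.42. Cd36 and Retsat stayed called whichever library was left out. Ehhadh lost the call without KO 3, KO 4 or KO 5 (limma adjusted p up to 0.0594) and with no filter (0.0504). Acadm lost it without any of 7 libraries, all but KO 3, WT 2 and WT 3 (up to 0.0683), and after quantile normalization (0.116), and Ucp2 without any of 7, all but KO 3, KO 4 and WT 3 (up to 0.0944), and with no filter (0.0832).

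**Figure D5:**
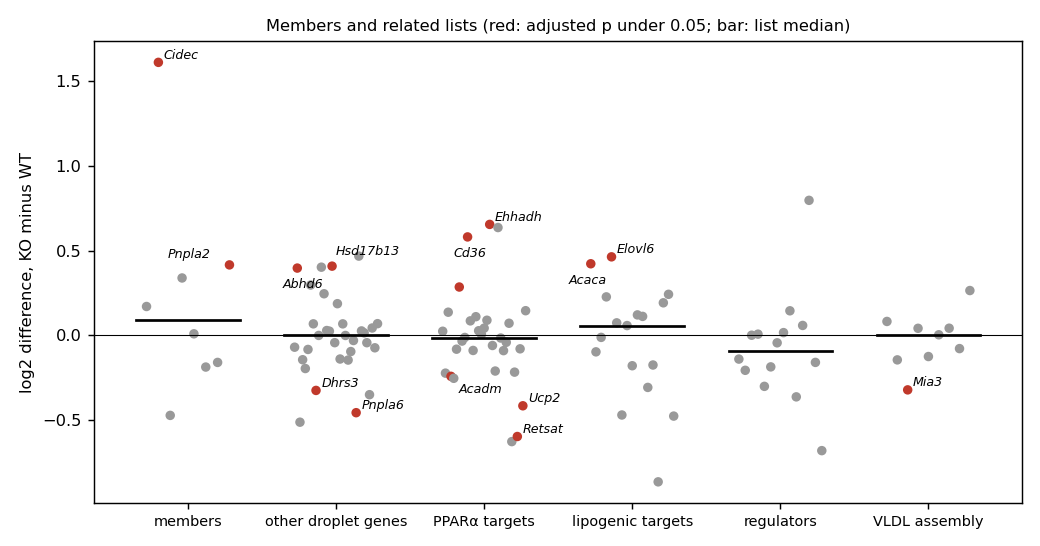
Log2 difference, KO minus WT, of each tested gene in the droplet set and in 5 related lists, with list medians as bars and called genes in red, named where the text describes them. Cidec (1.61) lies above every gene of the 5 lists, and the medians lie between -0.09 and 0.09.

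Lipogenic genes driven by SREBP1c and ChREBP, which also drive Pnpla3, had 2 of 17 higher, beside 3.98% called higher over all genes. None of them was lower and 15 did not pass (median 0.06). Elovl6, a fatty acid elongase, rose to 10.4 ± 0.93 FPKM in KO, against 7.41 ± 0.83 FPKM in WT (log2 difference 0.46, limma adjusted p = 0.0104). It lies 1.1 Mb from Etnppl on chromosome 3, so flanking DNA of the targeted locus cannot be told apart from loss of Etnppl. Acaca, which makes malonyl-CoA, rose by 0.42 on the log2 scale, and lost the call without any of 7 libraries, all but KO 4, WT 1 and WT 3 (limma adjusted p up to 0.0844), and with no filter (0.0719). None of the 10 droplet genes of the set lies on chromosome 3.

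None of 14 transcriptional regulators of droplet genes was called by limma, beside 8.54% over all genes (median -0.09). An unadjusted p under 0.05 was reached by 4, all of them lower in KO. Ppard was at 1.95 to 3.01 FPKM in KO and 3.25 to 4.01 FPKM in WT. All its KO libraries were thus below all its WT libraries, as for 4.78% of tested genes. The smallest p-values were those of Ppard, at 2.67 ± 0.42 FPKM in KO and 3.56 ± 0.32 FPKM in WT (log2 difference -0.36, limma adjusted p = 0.0586), and Hnf4a, a hepatocyte identity factor also counted above as a marker, at 115 ± 17.8 FPKM in KO and 142 ± 17.0 FPKM in WT (-0.30, limma adjusted p = 0.116). Creb3l3, a liver factor known to drive Cidec, averaged 205 FPKM in both genotypes (log2 difference 0.00, limma adjusted p = 0.998), Ppara had a log2 difference of 0.14 (0.582) and Pparg of 0.06 (0.781). Creb3l3, Ppara and Pparg were named after their values were seen.

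In the assembly of very low density lipoprotein, the export route for hepatic triglyceride in which Cideb takes part, limma called 1 of 9 genes. It was lower in KO (median 0.00), beside 4.56% called lower over all genes. Mia3, an export receptor of the endoplasmic reticulum, fell to 98.1 ± 8.34 FPKM in KO, against 122 ± 5.92 FPKM in WT (SD, n = 5 each; log2 difference -0.32, limma adjusted p = 0.0113). Tm6sf2, which helps to load lipid onto the particle, had a log2 difference of 0.26 (limma adjusted p = 0.0826), and 0.33 without WT 2 (0.0302).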

How the data were processed

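The labels' protocols describe frozen livers, poly-A selection and paired-end reads for 5 KO and 5 WT libraries. The authors deposited 1 table of FPKM (fragments scaled for transcript length and sequencing depth), used here as it stands. The submitters' processing notes name STAR, RSEM, R 4.0.2, DESeq, DESeq2 and mm10, without saying what each did. No label gives total reads, the gene annotation or whether counting used strand.

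The 10 droplet genes and the related lists were chosen with earlier results of these data known. Two-sided tests came from limma 3.58.1 (R 4.3.3), with genotype alone in the model and moderated variances (trend, robust), on log2(FPKM + 0.5) of genes averaging 0.5 FPKM or more, which understates changes of low genes. P-values were adjusted over 12247 genes. No count model was used, since FPKM is not a count. The fit was tested on simulated data. All 142 list entries matched the table, 2 of them through older symbols (Tmem159 for Ldaf1 and Spg20 for Spart). Plin1 and Hnf4a each stand in 2 lists. In each related list the called genes were named (at most 6), or the 2 with the smallest p where fewer than 2 were called, with marker genes that were called or at 0 and, for the 3 droplet genes with the smallest p, the 3 most correlated genes averaging 5 FPKM or more. A gene chosen otherwise is marked in the text, and 1 called gene of these lists is not reported here.

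Relative depth came from 64 genes seen in 3 to 8 libraries at nearly 1 value. After scaling by the estimated depths, 93.7% of the single library values of these genes lay within 3% of the median of their gene. No 2 libraries held identical values. Alternatives were other pseudocounts, filters, scalings and variance options, library weights, a replicate block and leaving out each library. Gene positions came from GENCODE M21 on GRCm38, the assembly of mm10, and promoter sequences from RefSeq on GRCm38.p6. Etnppl and depth were compared with exact permutation tests in Python 3.11.15, and figures drawn with matplotlib 3.10.9.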

Additional observations from a re-analysis of the deposited data

Results flagged for a closer look

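The droplet genes and the genes named by rule were searched, in KO and in WT, for a library whose gap to the nearest of the other 4 exceeded 0.71 of the range. Among 65 such groups it occurred 1 time, where chance would give about 3.25 (1 in 20). The case was Acaca, whose KO 4 value of 8.84 FPKM lay below the 11.07 to 11.78 FPKM of the other KO libraries. None of the droplet genes had such a library.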

How the results depend on the processing

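The droplet genes were tried under 10 other settings and with each library left out in turn. Cidec stayed called in all 20. The 2 droplet genes higher in KO became 1 when no filter was used (21111 genes entered and Pnpla2 missed the threshold) and 4 after quantile normalization, which added Cideb and Plin2. Leaving out 1 library gave 1 to 2, and none fell in any setting. Over all genes, 488 higher and 558 lower became 294 and 370 with no filter, and ranged from 259 to 456 and from 317 to 544 with 1 library left out. The balance of calls turned with the scaling, to 612 higher and 479 lower under quantile normalization, 578 and 500 under median-of-ratios and 542 and 522 under upper-quartile scaling. The fit with the replicate number as a block gave 230 higher and 321 lower. Deviations of same-numbered libraries correlated at 0.0908, 0.158, -0.207, 0.00821 and 0.208, and only numbers 1 and 5 matched best with themselves. With no reference for such values, whether the numbers pair the samples cannot be settled. Under the block 2 droplet genes stayed higher, PPARα targets became 2 higher and 1 lower, other droplet genes higher 1, lipogenic genes higher 0 and regulators lower 1. The calls lost there were those of Abhd6, Ehhadh, Acadm, Ucp2, Elovl6, Acaca and the marker Reln, with limma adjusted p from 0.0516 (Elovl6) to 0.0947 (Abhd6) and 0.0606 for Ehhadh, and Hnf4a gained a call (0.0416). With no filter, other droplet genes higher and lipogenic genes higher each became 1.

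With 1 library left out, other droplet genes ranged from 1 to 3 higher and 1 to 3 lower, PPARα targets from 1 to 3 higher and 1 to 3 lower, lipogenic genes from 1 to 3 higher, regulators from 0 to 1 lower and VLDL genes from 0 to 1 higher. The log2 difference of Plin4 ranged from -0.3150 to 0.0426 (without WT 3), and that of Plin3 from -0.0532 to 0.0355, with -0.0085 without KO 3, -0.0170 without KO 4 and -0.0532 without WT 4. Etnppl ranged from -1.62 to -1.29. Fewer libraries lower the power of the test, and the cause of the other changes was not tested. Depth per library is unknown in reads, which limits Cidea and Pnpla3 most.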

Other observations

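The patatin-like phospholipase family is wider than the pair of droplet lipases, and its other members did not share 1 direction. They were singled out after their values were seen. Pnpla7, a lysophospholipase, was at 94.36 to 106.43 FPKM in KO and 54.01 to 94.15 FPKM in WT, so all KO libraries were above all WT libraries, though its log2 difference of 0.47 did not pass the test (limma adjusted p = 0.0608). Pnpla6, its closest relative, fell in KO by 0.46 on the log2 scale. Pnpla8, a mitochondrial and peroxisomal phospholipase, had a log2 difference of 0.03 (limma adjusted p = 0.811). Pnpla1 and Pnpla5 were under the filter of 0.5 FPKM.

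Other droplet genes with an unadjusted p under 0.05 that did not pass the test lay on both sides of 0. Fitm1 and Fitm2, which partition triglyceride into budding droplets, had log2 differences of 0.40 and 0.25 (limma adjusted p of 0.153 and 0.127), and Dgat1, of triglyceride synthesis, had 0.30 (0.160). Acsl3, an acyl-CoA synthetase of growing droplets, had -0.51 (limma adjusted p = 0.191), Spart, a droplet protein also called spartin, had -0.35 (0.141), and Aup1, a droplet protein of protein quality control, had -0.20 (0.0522). None of these passed the test, and they too were chosen after their values were seen.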
